A study of Mus musculus with 9 samples.

Results

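The genes described here encode the pathway from insulin and growth factor receptors through phosphatidylinositol 3-kinase (PI3K) and the kinase AKT to the kinase mTOR, its regulators and its outputs. The 36 members were chosen by gene name among the rows of a table of 17187 genes, and all 36 were found. The table gives FPKM, fragments per kilobase of transcript scaled to the depth of the library. The RNA was poly(A)-selected and came from mouse medullary brainstem punches that contained the raphe nuclei. The 5 hIL-6 libraries came from wild-type mice injected into the cortex with the viral vector AAV2-hIL-6, whose treatment label is AAV2-HIL6-GFP. The 4 GFP libraries came from wild-type mice injected in the same way with AAV2-GFP, and all tissue was taken 3 weeks after injection. hIL-6 libraries 4 and 5 and GFP library 4 are labelled batch 2, while hIL-6 libraries 1 to 3 and GFP libraries 1 to 3 are labelled batch 1.

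The vectors were injected in the cortex and the RNA came from the brainstem, where each punch mixes many cell types. In such bulk samples, fewer cells of a type and less RNA per cell cannot be told apart. Age, sex, strain background, the promoter of the vectors and any spinal cord injury are not given in the labels of these libraries, nor is it said whether each library is a separate animal. The p-values therefore measure the spread between these libraries, which may be technical.

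PI3K is a dimer of a catalytic and a regulatory subunit that makes a membrane lipid to which AKT and its activating kinase PDPK1 bind. Active AKT inhibits the TSC1-TSC2 complex, and this frees the small GTPase RHEB to switch on mTOR complex 1, which raises protein synthesis through the S6 kinases and the eIF4E-binding proteins. In neurons the pathway is known for its control of cell size and of axon growth after injury. Most of its steps are switched by phosphorylation, which an RNA level does not measure.

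The relative depths of the 9 libraries, as recovered from the steps between low values, were 31.95 to 46.3 × 1e6 scaled fragments. Tph2, the serotonin-synthesising enzyme that marks raphe neurons, had 11.9 to 46.5 FPKM in hIL-6 libraries and 21.7 to 49.98 FPKM in GFP libraries, so the labelled tissue was represented in every library. The punches differed in content: 6 motor neuron markers summed to 11.6 to 59.9 FPKM in hIL-6 libraries and 12.6 to 63.1 FPKM in GFP libraries. The pituitary transcript Gh exceeded 1 FPKM in hIL-6 libraries 1 and 4 and in GFP libraries 1 and 2. Of all 9 libraries, GFP library 2 held the lowest value of 13 of the 35 members tested. GFP library 4, of batch 2, held the highest value of 13. The 10 markers of microglia, all in the table, summed to 209 to 267 FPKM in hIL-6 libraries and 175 to 205 FPKM in GFP libraries, and the 8 markers of astrocytes summed to 666 to 1071 FPKM in hIL-6 libraries and 388 to 640 FPKM in GFP libraries. Without the intermediate filament gene Gfap, the other 7 astrocyte markers summed to 395 to 508 FPKM in hIL-6 libraries and 346 to 480 FPKM in GFP libraries, which overlap. Without the 4 libraries with Gh above 1 FPKM, no member was called in either comparison below. With all 9 libraries, the comparison of hIL-6 with GFP called no member either. For batch, nearly all calls over the whole table were lost as well, with fewer libraries left to test. The part of pituitary content in the lost calls was not tested. Without those 4 libraries, the sign of the hIL-6 difference turned for 5 of the 22 members followed (Pik3ca, Pik3r2, Pik3r3, Akt1 and Tsc2). The part of motor neuron, microglia and astrocyte content in the values below was not tested.

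The first comparison asks whether RNA of the pathway differed in the brainstem between hIL-6 and GFP libraries. All 35 members that passed the filter on low values (a mean of at least 0.5 FPKM over the 9 libraries) had values that overlapped between the groups, whereas 0.759% of all 13958 genes tested did not overlap. No member passed an adjusted p of 0.05, and no gene did (0% of 13958), in limma fits of log2(FPKM + 0.5) with batch as a term and Benjamini-Hochberg adjustment over all genes. The smallest adjusted p of any member was 0.999. At an unadjusted p under 0.05, the count was 1 member of 35 (2.86%), the S6 kinase gene Rps6kb1, against 543 genes (3.89%) over the whole table. Below, a log2 difference is hIL-6 minus GFP on the log2(FPKM + 0.5) scale, which understates changes of low genes. Its adjusted p in this limma fit is at least 0.9986 in each case.

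The spread of the members sets what could be seen. Their median log2 difference was -0.031, beside -0.0026 over all genes, and 14 of 35 (40%) lay above 0, beside 48.9% of all genes. Leaving out each library in turn gave medians of -0.049 to 0.00097 over members, the highest without GFP library 1, and 11 to 19 members above 0. The 95% confidence interval reached a median of 0.17 to either side for members and 0.20 for all genes on the log2 scale. For 32 of 35 members the whole interval lay within 0.5 of 0, and the exceptions were Tsc2, Eif4ebp1 and Ddit4l. Within batch 1 alone, the median log2 difference was -0.015 with 16 of 35 members above 0, and in batch 2, which has 1 GFP library and no test, it was -0.050 with 9 of 35 above 0. In batch 1 alone, limma called no member and no gene (0%), and 1 member against 2.85% of genes had an unadjusted p under 0.05. The difference had one sign in both batches for 24 of 35 members, beside 58.3% of all genes. In the next test the batch 2 side rests on the 1 GFP library of that batch, so few calls do not show that the batches agree. A test of whether the difference itself changed between batches called 0 members, against 2 genes (0.0143%), and 0 members against 297 genes (2.13%) at an unadjusted p under 0.05.

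**Figure D1:**
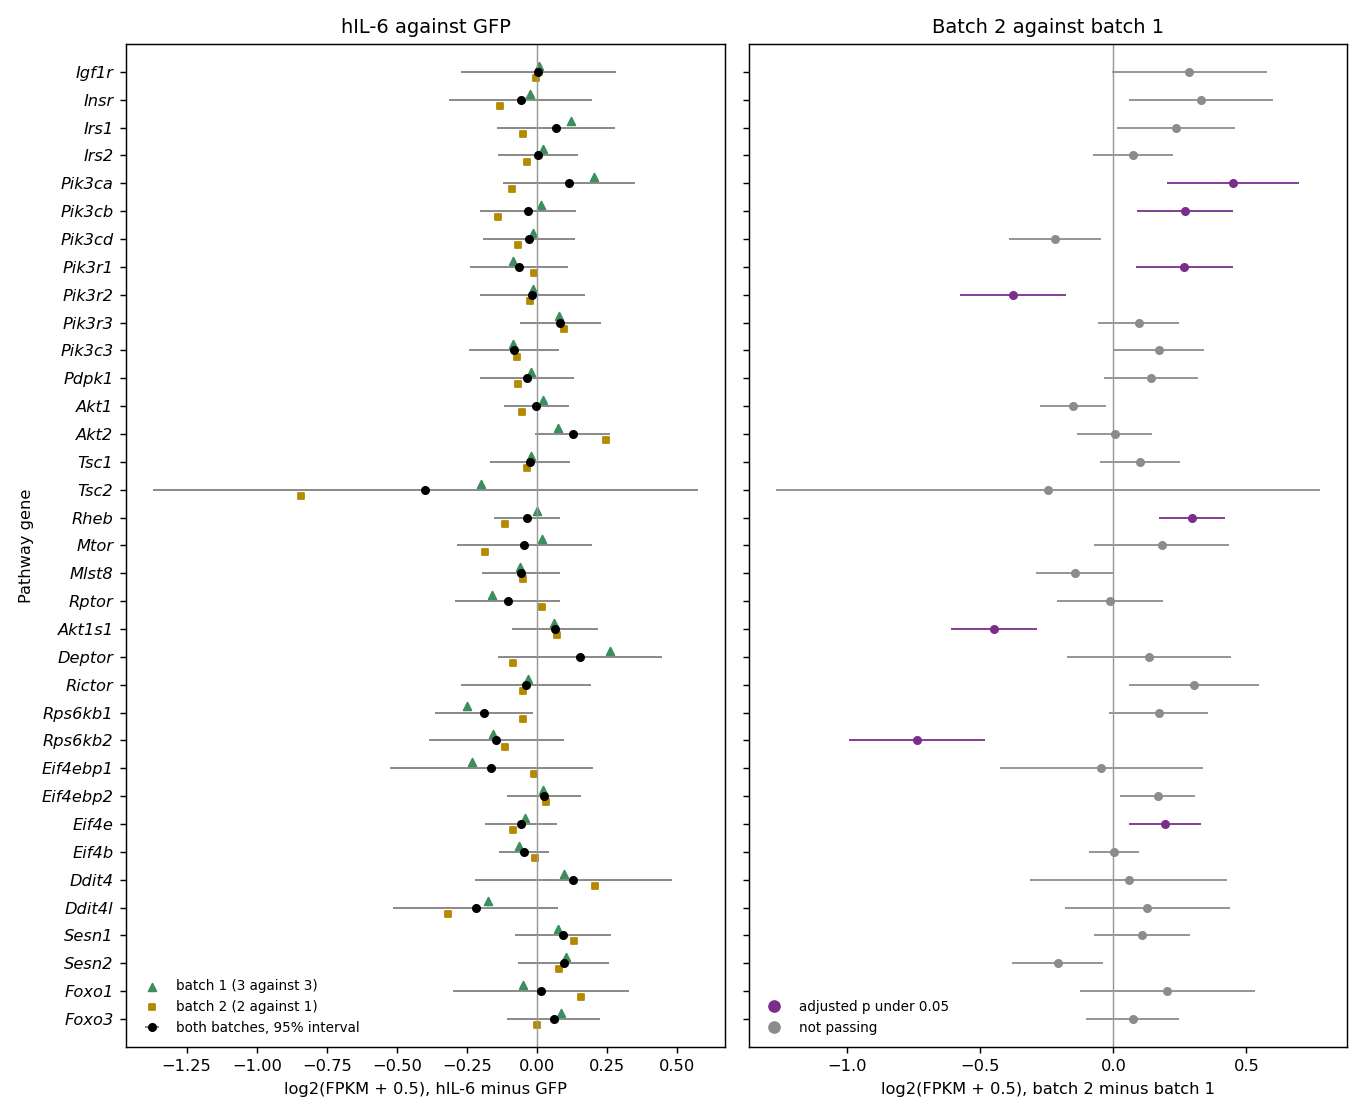
Left, log2 difference of each of the 35 tested members, hIL-6 minus GFP, with 95% intervals (black) and the values within batch 1 (triangles) and batch 2 (squares); right, batch 2 minus batch 1, with the 8 members at an adjusted p under 0.05 in purple. Every black point on the left is between -0.40 (Tsc2) and 0.15 (Deptor), and the interval of Rps6kb1 alone leaves out 0.

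The kinase AKT was represented by 2 members. Akt1 (chr12:112653821-112674884, minus strand; coordinates here are GENCODE M21 on mm10), the widely expressed AKT gene, was among the highest of the pathway, at 98.8, 89.5, 92.1, 81.9 and 82.8 FPKM in hIL-6 libraries 1 to 5, against 91.3, 98.9, 86.5 and 85.5 FPKM in GFP libraries 1 to 4. Its log2 difference was -0.0027 (SE 0.052), with a 95% interval of -0.12 to 0.11, and its values overlapped throughout. Akt2 (chr7:27591552-27640826, plus strand), the AKT gene known for insulin action in muscle, liver and fat, had 23.6, 26.5, 25.7, 27.9 and 25.2 FPKM in hIL-6 libraries 1 to 5, against 23.7, 23.6, 24.6 and 22.3 FPKM in GFP libraries 1 to 4. Of the hIL-6 libraries, numbers 2 to 5 were above every GFP library and number 1 was within the GFP range. The log2 difference of Akt2 was 0.13 (SE 0.060), with a 95% interval of -0.0073 to 0.26 and an unadjusted p of 0.0613, and it was 0.075 within batch 1 and 0.24 within batch 2. Akt1 exceeded Akt2 in all 9 libraries, by 2.93 to 4.20 times in FPKM. Pdpk1, the kinase that activates AKT and S6 kinase, averaged 28.5 ± 2.81 FPKM in hIL-6 libraries and 28.8 ± 2.17 FPKM in GFP libraries (SD, n = 5 and n = 4), with a log2 difference of -0.037 (SE 0.075).

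Cytokines of the interleukin-6 family signal through the receptor gp130 and the transcription factor STAT3. The promoters of the members were therefore searched for the letters TTCNNNGAA, the core of a STAT binding site, which reads alike on both strands. The search covered the 250 bases before each start in RefSeq promoters of GRCm38.p6, where 31 members had an entry (none was found for Deptor, Eif4ebp1, Rps6kb2, Pik3c3 and Insr). The letters were present in 3 of 43 member promoters, belonging to 3 of 31 members, beside 7.02% of all 32851 promoters. The 60 bases around each match are shown because Akt2 had the second smallest p of the members and Mtor is the central kinase; capitals mark the match.
Akt2, chr7:27591366-27591425, plus strand: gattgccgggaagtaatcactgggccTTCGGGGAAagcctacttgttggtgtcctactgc
Mtor, chr4:148448332-148448391, plus strand: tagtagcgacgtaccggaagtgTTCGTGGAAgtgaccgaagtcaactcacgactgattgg
Eif4e, chr3:138527103-138527162, plus strand: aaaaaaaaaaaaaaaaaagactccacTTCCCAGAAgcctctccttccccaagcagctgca
The match lies 160 to 152 bases before the start in Akt2, 228 to 220 bases before it in Mtor and 139 to 131 bases before 1 of the 2 starts of Eif4e. A match is only a run of letters, and binding was not measured.

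The kinase mTOR and its partners showed no difference past the threshold. Mtor (chr4:148448611-148557683, plus strand) had 17.9, 14.1, 14.1, 16.7 and 16.1 FPKM in hIL-6 libraries 1 to 5, against 18.2, 13.4, 14.1 and 18.7 FPKM in GFP libraries 1 to 4. The libraries numbered 1 and those of batch 2 were the high ones in both groups, and the log2 difference was -0.045 (SE 0.11), with a 95% interval of -0.29 to 0.19. Rptor (chr11:119602905-119899576, plus strand), the scaffold that defines mTOR complex 1, had 9.45, 8.11, 8.37, 9.83 and 8.18 FPKM in hIL-6 libraries 1 to 5, against 10.6, 9.30, 9.20 and 8.87 FPKM in GFP libraries 1 to 4, a log2 difference of -0.11 (SE 0.084). Rictor (chr15:6708379-6800401, plus strand), the defining subunit of mTOR complex 2, which phosphorylates AKT, had 4.90, 4.55, 4.59, 5.83 and 5.86 FPKM in hIL-6 libraries 1 to 5, against 5.54, 3.78, 5.24 and 6.07 FPKM in GFP libraries 1 to 4, a log2 difference of -0.038 (SE 0.10). GFP library 2 was the lowest of the 9 for Mtor and Rictor, and Rptor exceeded Rictor in all 9 libraries by 1.40 to 2.46 times. Mlst8, a subunit of both complexes, averaged 8.84 ± 0.592 FPKM in hIL-6 libraries and 9.37 ± 0.717 FPKM in GFP libraries. Akt1s1, an AKT substrate (PRAS40) that inhibits mTOR complex 1, had 34.1, 33.0, 36.5, 24.2 and 26.3 FPKM in hIL-6 libraries 1 to 5, against 30.9, 37.5, 31.1 and 24.0 FPKM in GFP libraries 1 to 4. Its values split by batch rather than by vector, with a log2 difference between hIL-6 and GFP of 0.064 (SE 0.069). Deptor, an inhibitor bound to mTOR in both complexes, had a log2 difference of 0.15 (SE 0.13), with 5.15 to 7.95 FPKM in hIL-6 libraries and 4.76 to 6.40 FPKM in GFP libraries. hIL-6 library 1 was the highest of the 9, and the other hIL-6 libraries lay between 5.15 and 6.37 FPKM, within the GFP range.

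Upstream of mTOR complex 1, Tsc1 (chr2:28641228-28691167, plus strand), whose product stabilises TSC2, varied little, with 10.8, 10.8, 11.2, 12.1 and 11.3 FPKM in hIL-6 libraries 1 to 5, against 11.8, 10.1, 11.5 and 12.001 FPKM in GFP libraries 1 to 4. Its log2 difference was -0.026 (SE 0.063). Rheb (chr5:24802823-24842624, minus strand), the GTPase that TSC2 inactivates, had 56.6, 59.2, 55.7, 70.9 and 65.4 FPKM in hIL-6 libraries 1 to 5, against 56.2, 60.8, 54.6 and 73.8 FPKM in GFP libraries 1 to 4, a log2 difference of -0.036 (SE 0.052). The 3 highest Rheb libraries were those of batch 2. Tsc2 (chr17:24595816-24632630, minus strand), the GTPase-activating subunit, was the most variable tested member, with 1.90, 3.32, 0.521, 0.334 and 2.19 FPKM in hIL-6 libraries 1 to 5, against 2.52, 2.20, 1.24 and 2.18 FPKM in GFP libraries 1 to 4. hIL-6 library 2 was the highest and hIL-6 libraries 3 and 4 the lowest of all 9, so hIL-6 libraries spanned the GFP libraries on both sides. The log2 difference of Tsc2 was -0.40 (SE 0.43), with a 95% interval of -1.37 to 0.57. Leaving out hIL-6 library 3 gave -0.094, leaving out hIL-6 library 4 gave -0.15, leaving out GFP library 4 gave -0.20 and leaving out hIL-6 library 2 gave -0.71. Tsc2 has 22 transcripts in the annotation, 8 of them coding, and its exons overlap those of Pkd1 on the other strand, while Pkd1 averaged 5.196 ± 0.275 FPKM in hIL-6 libraries and 5.28 ± 0.632 FPKM in GFP libraries. The sources used here do not say whether the authors' quantification used strand.

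Among the outputs of mTOR complex 1, the S6 kinases and translation factors had 1 of 6 members above 0. Rps6kb1 (chr11:86498871-86544805, minus strand), which encodes the S6 kinase that phosphorylates ribosomal protein S6, had 12.6, 11.2, 10.7, 12.8 and 14.7 FPKM in hIL-6 libraries 1 to 5, against 14.9, 13.2, 13.2 and 14.2 FPKM in GFP libraries 1 to 4. hIL-6 libraries 1 to 4 were below every GFP library and hIL-6 library 5 was within the GFP range. Its mean was 12.4 ± 1.56 FPKM in hIL-6 libraries and 13.9 ± 0.837 FPKM in GFP libraries (SD, n = 5 and n = 4), and its log2 difference was -0.19 (SE 0.079), with a 95% interval of -0.37 to -0.013 and an unadjusted p of 0.0377. Within batch 1 it was -0.25 (unadjusted p = 0.0305), and within batch 2 it was -0.050. The exons of Rps6kb1 overlap those of Rnft1 on the other strand. Rps6kb2 (chr19:4153991-4163354, minus strand), the related S6 kinase gene, had 15.3, 11.6, 10.2, 6.72 and 7.74 FPKM in hIL-6 libraries 1 to 5, against 13.3, 14.7, 13.2 and 7.86 FPKM in GFP libraries 1 to 4, and its log2 difference was -0.14 (SE 0.11). Rps6kb1 exceeded Rps6kb2 in 6 of 9 libraries, the lowest ratio being 0.823 and the highest 1.90.

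Eif4ebp1 (chr8:27260329-27276674, plus strand), a repressor that holds the cap-binding protein eIF4E until mTOR phosphorylates it, was near the floor, with 0.898, 0.517, 0.800, 0.647 and 0.884 FPKM in hIL-6 libraries 1 to 5, against 0.943, 0.676, 1.26 and 0.770 FPKM in GFP libraries 1 to 4. These values stand for about 32.0 to 73.4 scaled fragments a library, and its log2 difference was -0.16 (SE 0.16), with a 95% interval of -0.52 to 0.20. Its paralog Eif4ebp2 was the higher of the pair, at 11.9 to 27.8 times the FPKM of Eif4ebp1, and averaged 14.9 ± 1.12 FPKM in hIL-6 libraries and 14.4 ± 1.19 FPKM in GFP libraries. Eif4e itself had 14.99, 15.6, 13.99, 17.5 and 16.2 FPKM in hIL-6 libraries 1 to 5, against 14.5, 15.7, 15.8 and 17.9 FPKM in GFP libraries 1 to 4, a log2 difference of -0.057 (SE 0.057). Eif4b, a helicase cofactor phosphorylated by S6 kinase, was the steadiest member, with a coefficient of variation of 2.48% over 9 libraries, and averaged 55.2 ± 1.153 FPKM in hIL-6 libraries and 57.1 ± 0.909 FPKM in GFP libraries. Its log2 difference was -0.047 (SE 0.040), with a 95% interval of -0.14 to 0.041.

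**Figure D2:**
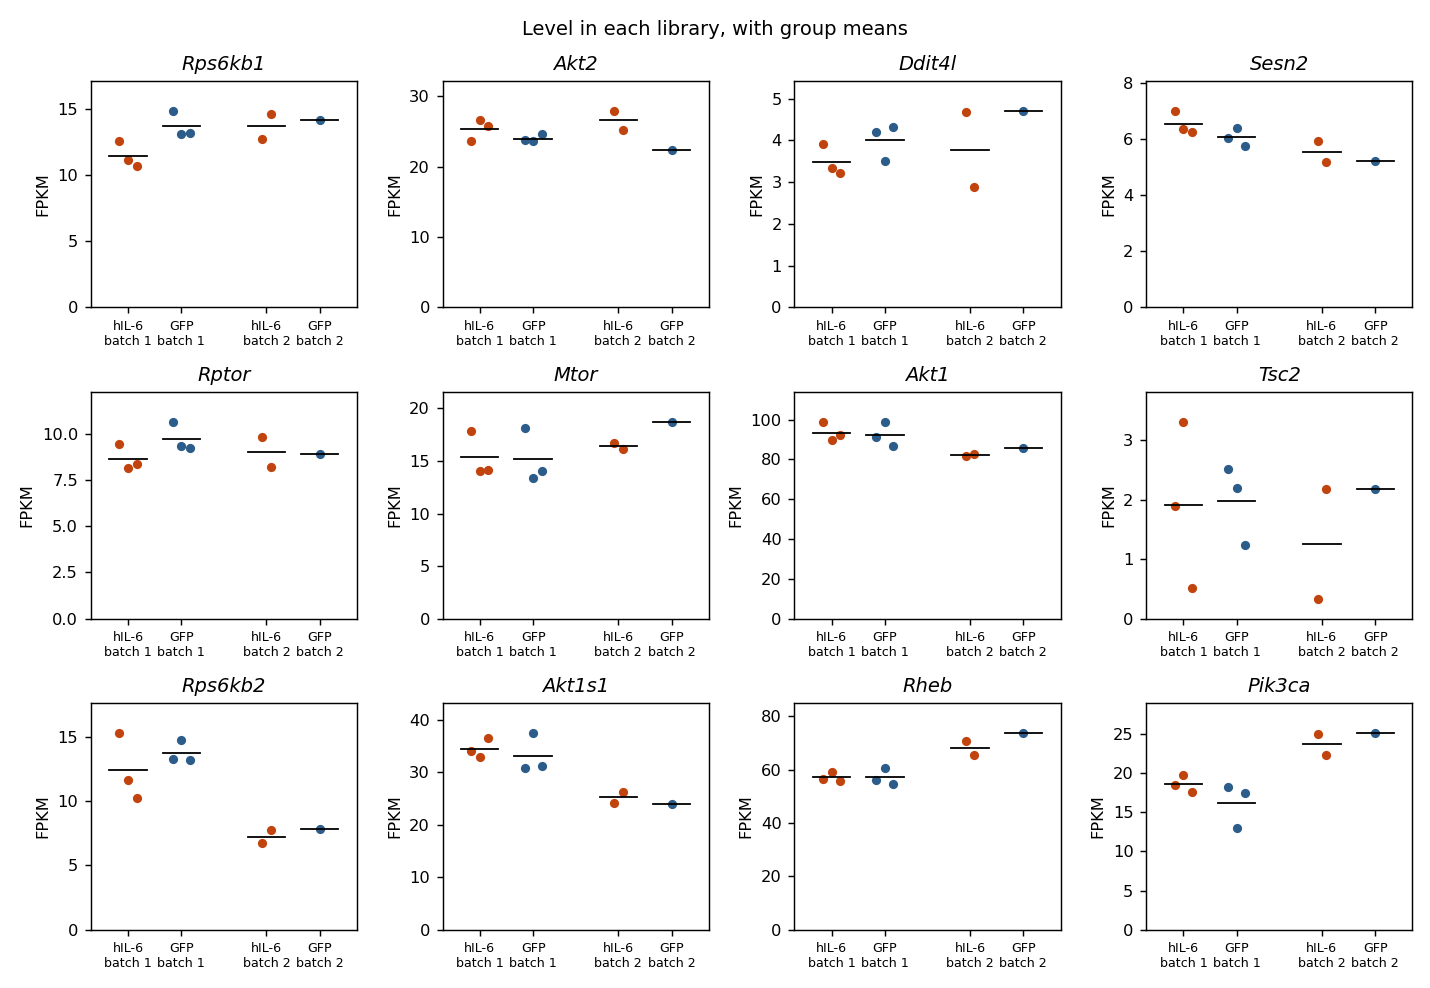
FPKM of 12 members in each library, as points, split by vector and batch, with group means as bars (3 hIL-6 and 3 GFP libraries in batch 1, 2 hIL-6 and 1 GFP in batch 2). hIL-6 and GFP points overlap in each panel when batches are pooled, while Rps6kb2 and Akt1s1 are lower and Rheb and Pik3ca higher in batch 2.

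At the head of the pathway, Igf1r and Insr encode the receptors for insulin-like growth factor 1 and insulin, and Irs1 and Irs2 the adaptors that tie them to PI3K. Igf1r averaged 4.88 ± 0.630 FPKM in hIL-6 libraries and 4.77 ± 1.02 FPKM in GFP libraries. Insr averaged 4.92 ± 0.656 FPKM in hIL-6 libraries and 5.01 ± 1.11 FPKM in GFP libraries. Both were lowest in GFP library 2, at 3.26 FPKM for Igf1r and 3.56 FPKM for Insr. Irs2 exceeded Irs1 in all 9 libraries by 5.42 to 7.11 times and had 15.5 to 16.9 FPKM in hIL-6 libraries and 14.04 to 17.0 FPKM in GFP libraries. The log2 differences of these 4 genes lay between -0.059 (Insr) and 0.068 (Irs1).

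The catalytic subunits stood in the same order in every library. Pik3ca (chr3:32397671-32468486, plus strand), encoding p110 alpha, the PI3K subunit used by insulin receptors, had 18.5, 19.7, 17.5, 25.02 and 22.3 FPKM in hIL-6 libraries 1 to 5, against 18.2, 13.0, 17.5 and 25.1 FPKM in GFP libraries 1 to 4. It exceeded Pik3cb (p110 beta) by 1.35 to 2.19 times, and Pik3cb exceeded Pik3cd (p110 delta, best known from leukocytes) by 1.64 to 2.72 times. The log2 difference was 0.11 (SE 0.11) for Pik3ca, where GFP library 2 was the lowest and the 3 batch 2 libraries were the highest. Pik3cb had 10.3, 9.64, 8.36, 11.4 and 10.51 FPKM in hIL-6 libraries 1 to 5, against 9.48, 9.69, 8.79 and 12.1 FPKM in GFP libraries 1 to 4, a log2 difference of -0.033 (SE 0.077). Pik3cd averaged 4.85 ± 0.487 FPKM in hIL-6 libraries and 5.09 ± 0.522 FPKM in GFP libraries. Pik3c3, the class III enzyme (VPS34) of autophagy and endosome traffic, averaged 19.0 ± 1.42 FPKM in hIL-6 libraries and 19.9 ± 2.24 FPKM in GFP libraries, with a log2 difference of -0.082 (SE 0.072).

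The regulatory subunits, which hold the catalytic ones and bring them to receptors, were at similar levels. Pik3r1 (p85 alpha) had 18.1, 19.1, 20.7, 23.7 and 23.8 FPKM in hIL-6 libraries 1 to 5, against 20.3, 18.03, 23.5 and 24.0 FPKM in GFP libraries 1 to 4, a log2 difference of -0.064 (SE 0.078). Pik3r2 (p85 beta) had 24.8, 21.7, 21.99, 17.0 and 17.7 FPKM in hIL-6 libraries 1 to 5, against 22.2, 27.1, 20.3 and 17.7 FPKM in GFP libraries 1 to 4, a log2 difference of -0.017 (SE 0.084). Pik3r2 exceeded Pik3r1 in 5 of 9 libraries, all of them in batch 1. Pik3r3 (p55 gamma) had 18.1, 15.6, 17.3, 19.5 and 17.0 FPKM in hIL-6 libraries 1 to 5, against 15.6, 15.7, 16.8 and 17.0 FPKM in GFP libraries 1 to 4, with a log2 difference of 0.083 (SE 0.065) and an unadjusted p of 0.230.

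Of the stress-induced inhibitors of mTOR complex 1, Ddit4 (chr10:59949669-59951834, minus strand), encoding REDD1, which acts through TSC and is raised by hypoxia and glucocorticoids, had 24.6, 18.7, 32.7, 24.1 and 29.2 FPKM in hIL-6 libraries 1 to 5, against 18.8, 25.96, 25.2 and 22.9 FPKM in GFP libraries 1 to 4. hIL-6 libraries held both the highest and the lowest value, and the log2 difference was 0.13 (SE 0.16), with a 95% interval of -0.22 to 0.48. A list of 11 other glucocorticoid-induced genes, as a mean log2 value centred on its mean over libraries, stood at -0.11, -0.23, 0.51, -0.074 and 0.33 in hIL-6 libraries 1 to 5 and at -0.22, -0.39, 0.33 and -0.15 in GFP libraries 1 to 4. The highest 2 Ddit4 values were in hIL-6 libraries 3 and 5, which also had the highest 2 values of that list. Second place in the list was close, at 0.333 in hIL-6 library 5 against 0.327 in GFP library 3. GFP library 2 had the lowest list value and the highest Ddit4 value after those of hIL-6 libraries 3 and 5. The part of that list in Ddit4 was not tested. Ddit4l, the related REDD2 gene, had 3.92, 3.33, 3.23, 4.67 and 2.89 FPKM in hIL-6 libraries 1 to 5, against 4.20, 3.50, 4.32 and 4.72 FPKM in GFP libraries 1 to 4, with a log2 difference of -0.22 (SE 0.13) and a 95% interval of -0.51 to 0.076. Sesn1 and Sesn2 encode sestrins, which restrain mTOR complex 1 through the amino acid sensing complex GATOR2. Sesn1 had 13.5, 13.2, 16.1, 16.3 and 14.9 FPKM in hIL-6 libraries 1 to 5, against 12.8, 12.9, 14.7 and 14.1 FPKM in GFP libraries 1 to 4, a log2 difference of 0.093 (SE 0.076). Sesn2 had 7.02, 6.37, 6.26, 5.94 and 5.18 FPKM in hIL-6 libraries 1 to 5, against 6.03, 6.39, 5.78 and 5.23 FPKM in GFP libraries 1 to 4, a log2 difference of 0.095 (SE 0.073). Sesn3 was below the filter and not tested, with 0.162, 0, 0.380, 0 and 0.425 FPKM in hIL-6 libraries 1 to 5, against 0.408, 1.505, 0.456 and 0 FPKM in GFP libraries 1 to 4.

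FOXO factors are kept out of the nucleus when AKT phosphorylates them. Foxo3 exceeded Foxo1 in all 9 libraries by 4.83 to 7.93 times. Foxo3 averaged 11.1 ± 0.714 FPKM in hIL-6 libraries and 10.6 ± 0.888 FPKM in GFP libraries, a log2 difference of 0.059. Foxo1 averaged 2.03 ± 0.412 FPKM in hIL-6 libraries and 1.94 ± 0.313 FPKM in GFP libraries, a log2 difference of 0.014.

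**Figure D3:**
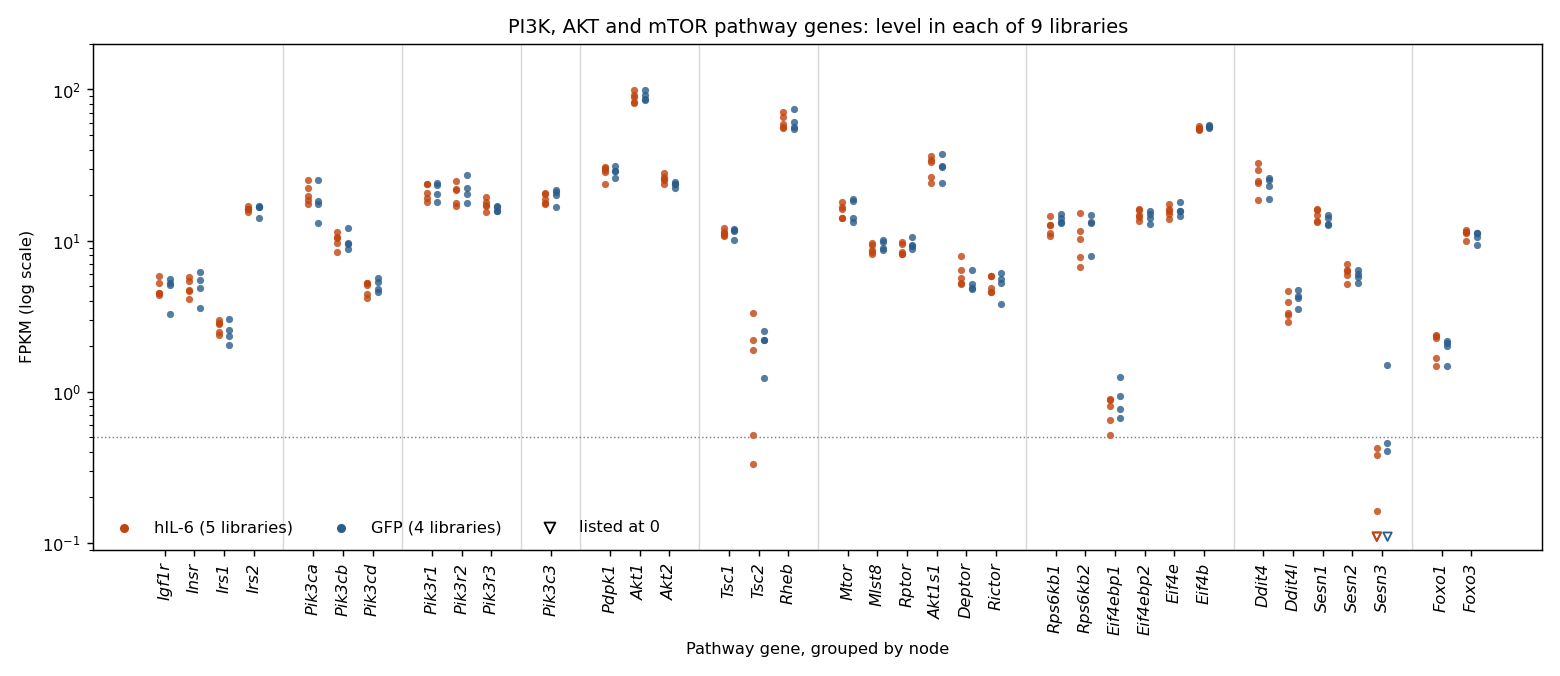
FPKM (log scale) of the 36 members in the 5 hIL-6 and 4 GFP libraries, 1 point a library, grouped by node; open triangles mark values listed at 0 (Sesn3, 2 hIL-6 libraries and 1 GFP library) and the dotted line marks 0.5 FPKM. Akt1, Rheb and Eif4b are the highest members, and Tsc2 and Sesn3 spread most between libraries.

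The 9 lists of other genes of the pathway and its surroundings held 117 genes of which 115 were tested. limma called 0 of 115 for hIL-6 against GFP, beside 0% of all 13958 genes, and 4 had an unadjusted p under 0.05, against 3.89% of all genes. Their median log2 difference was 0.011, beside -0.0026 over all genes, and 62 lay above 0. The share above 0 over all genes, 48.9%, stands beside this count and those by list below. By list, the genes above 0 were 6 of 21 on the PI3K side, 6 of 8 for mTOR complex 2 and related kinases, 12 of 24 for amino acid sensing and 12 of 21 for further outputs of mTOR complex 1. They were 0 of 2 for the TSC complex and RHEB paralog, 4 of 10 for the energy-sensing kinase AMPK, 6 of 10 for FOXO relatives and targets, 10 of 11 for glucocorticoid response genes and 6 of 8 for ATF4 stress response genes. The genes with the 2 smallest unadjusted p values in each list are given next, and none of them passed the adjusted threshold. Mt2, a metallothionein, had 252 to 423 FPKM in hIL-6 libraries and 173 to 279 FPKM in GFP libraries and a log2 difference of 0.55 (SE 0.15). Its relative Mt1 had 378 to 612 FPKM in hIL-6 libraries and 282 to 445 FPKM in GFP libraries and a log2 difference of 0.39 (SE 0.11). Lpin1, a phosphatidate phosphatase that mTOR complex 1 phosphorylates, had 2.53 to 4.20 FPKM in hIL-6 libraries and 1.67 to 3.40 FPKM in GFP libraries and a log2 difference of 0.51 (SE 0.18), beside 0.11 for the translation factor gene Eif4h. Inpp4b, which degrades a PI3K lipid product, had a log2 difference of -0.23 (SE 0.10), beside 0.22 for the PI3K regulatory subunit Pik3r5. The log2 differences were 0.16 for Prr5l and 0.16 for Sgk3, -0.093 for Depdc5 and -0.069 for Nprl2 (both subunits of GATOR1), and -0.29 for Rhebl1 and -0.034 for Tbc1d7. They were -0.11 for Prkag2 and -0.11 for Prkaa2 (both AMPK subunits), 0.23 for Klf15 and 0.14 for Txnip, and 0.55 for Nupr1 and 0.14 for Chac1.

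The second comparison is between the labelled batches, which each hold both vectors. What the batch label stands for is not given. In the same limma fit, 8 of 35 members (22.9%) differed between batch 2 and batch 1 at an adjusted p under 0.05, against 3138 of 13958 genes (22.5%), so the share of members was that of the table. Of the 8, 5 were higher in batch 2 (11.4% of all genes were higher) and 3 were lower (11.1% of all genes were lower). For 14 of 35 members (40%), batch 2 and batch 1 libraries did not overlap, against 27.8% of all genes. Log2 differences below are batch 2 minus batch 1. Their median was 0.11 over members, with 25 of 35 (71.4%) above 0, and -0.0031 over all genes, with 49.5% above 0.

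Lower in batch 2 was the second S6 kinase gene, Rps6kb2, with 6.72 to 7.86 FPKM in batch 2, against 10.2 to 15.3 FPKM in batch 1, a log2 difference of -0.74 (SE 0.11, adjusted p = 0.00545). The mTOR complex 1 inhibitor Akt1s1 had 24.0 to 26.3 FPKM in batch 2, against 30.9 to 37.5 FPKM in batch 1, a log2 difference of -0.45 (SE 0.072, adjusted p = 0.00589). The PI3K regulatory subunit gene Pik3r2 was lower too, with 17.0 to 17.7 FPKM in batch 2, against 20.3 to 27.1 FPKM in batch 1 and a log2 difference of -0.38 (SE 0.089, adjusted p = 0.0173). Higher in batch 2 was the catalytic subunit gene Pik3ca, with 22.3 to 25.1 FPKM in batch 2, against 13.0 to 19.7 FPKM in batch 1, a log2 difference of 0.45 (SE 0.11, adjusted p = 0.0205). Rheb had 65.4 to 73.8 FPKM in batch 2, against 54.6 to 60.8 FPKM in batch 1, a log2 difference of 0.30 (SE 0.055, adjusted p = 0.00850). Pik3cb, Pik3r1 and Eif4e were higher by smaller amounts. Their log2 differences were 0.27 (SE 0.081, adjusted p = 0.0411) for Pik3cb, 0.27 (SE 0.082, adjusted p = 0.0436) for Pik3r1 and 0.19 (SE 0.060, adjusted p = 0.0464) for Eif4e. The exons of all 3 lower members overlap those of genes on the other strand: Coro1b and Ptprcap for Rps6kb2, Tbc1d17 for Akt1s1 and 6330537M06Rik for Pik3r2. Ptprcap and 6330537M06Rik were not analysed here. For the other overlapping genes, the log2 batch differences were -0.12 for Coro1b (adjusted p = 0.145) and -0.23 for Tbc1d17 (adjusted p = 0.104) in limma. Exons also overlap genes on the other strand for Irs1, Irs2, Tsc2, Mlst8, Rptor, Deptor, Rps6kb1 and Foxo1, none of which was called by batch. The share of all genes with such an overlap was not counted, and its part in the batch differences was not tested. The calls depended on single libraries, most on those of batch 2. Leaving out GFP library 4 left 0 members and 29 genes called. Leaving out hIL-6 library 4 left 3 members and 958 genes, and leaving out hIL-6 library 5 left 5 members and 1696 genes. Leaving out any library of batch 1 left 6 to 9 members and 2367 to 3370 genes, and 3 of the 8 members lost their call without GFP library 1.

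The batch difference moved with base composition. The GC content of each gene's longest coding transcript was 40.5 to 47.1% in the 5 members higher in batch 2 and 55.6 to 61.8% in the 3 lower ones. These transcripts were 1784 to 8917 bases long in the higher members and 1812 to 4586 in the lower ones, and the part of length was not tested. The median GC content was 50.3% over members and 50.4% over all genes. Of 17 members at or under 50% GC, 16 had a batch difference above 0, and of 10 members over 55% GC, 7 were below 0. Across the 35 members, which share the 9 libraries, Spearman's rho between GC content and the batch difference was -0.757, and across 12896 genes it was -0.679. Over all genes, the 3224 genes lowest in GC content had a median batch difference of 0.20 with 85.9% above 0, and the 3224 highest had a median of -0.22 with 10.3% above 0. The difference between hIL-6 and GFP had a rho with GC content of 0.198 over members and 0.166 over genes. With the GC trend of each library removed, 1 of the 8 members passed the threshold, Rps6kb2, at a log2 difference of -0.59 (SE 0.11, adjusted p = 0.0366 in limma), beside 248 of 12896 genes (1.92%). Of the calls that were lost, Rheb stood at 0.21 (SE 0.060, adjusted p = 0.0985) and Pik3ca at 0.22 (SE 0.095, adjusted p = 0.216). Pik3cb stood at 0.15, Pik3r1 at 0.13, Eif4e at -0.048, Akt1s1 at -0.13 and Pik3r2 at -0.073. The removal also takes out any batch difference that follows GC content for another reason. Rps6kb2 had 55.6% GC, and the members nearest to it were Tsc2, Mlst8, Akt2, Rptor and Irs2, at 54.7 to 56.6%. Their batch differences as deposited lay between -0.25 (Tsc2) and 0.072 (Irs2), against -0.74 for Rps6kb2. The middle 120 coding bases of a pair of genes lower in batch 2 and of a pair higher in batch 2 are shown from GENCODE M21. G and C are in capitals, to show how unlike the pairs are in composition.
Rps6kb2, coding bases 668 to 787: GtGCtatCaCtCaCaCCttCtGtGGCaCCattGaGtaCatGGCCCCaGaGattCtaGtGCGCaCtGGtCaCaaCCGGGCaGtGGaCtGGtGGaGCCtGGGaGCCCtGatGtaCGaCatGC
Akt1s1, coding bases 433 to 552: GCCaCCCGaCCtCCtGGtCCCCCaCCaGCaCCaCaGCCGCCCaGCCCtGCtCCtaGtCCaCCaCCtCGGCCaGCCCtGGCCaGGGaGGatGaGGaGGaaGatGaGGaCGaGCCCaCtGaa
Pik3ca, coding bases 1543 to 1662: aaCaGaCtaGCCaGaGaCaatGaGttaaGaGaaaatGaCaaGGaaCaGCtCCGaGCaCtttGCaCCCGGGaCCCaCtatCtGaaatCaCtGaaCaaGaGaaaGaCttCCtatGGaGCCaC
Rheb, coding bases 217 to 336: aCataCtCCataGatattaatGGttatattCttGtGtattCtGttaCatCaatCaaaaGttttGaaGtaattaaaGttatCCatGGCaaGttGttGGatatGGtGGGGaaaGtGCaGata
G and C make up 57.5% of the stretch in Rps6kb2 and 68.3% in Akt1s1, against 46.7% in Pik3ca and 31.7% in Rheb, and 56.5%, 64.8%, 44.5% and 40.6% of the 4 whole coding sequences in that order.

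**Figure D4:**
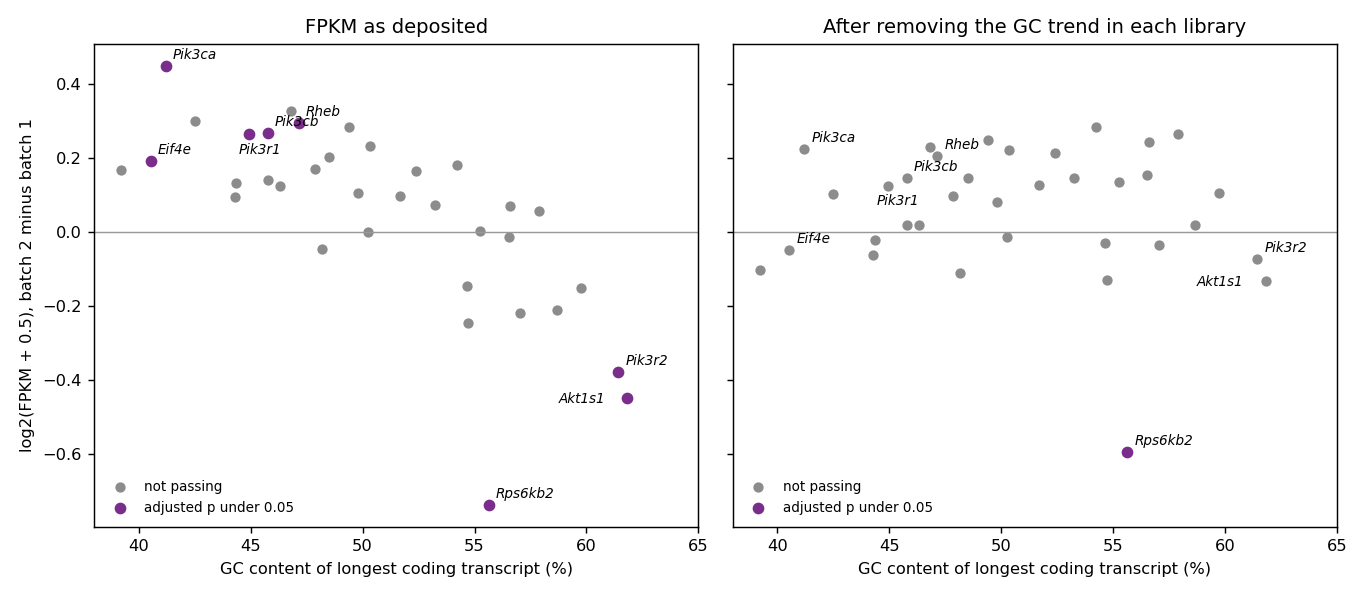
Log2 difference of the 35 members between batch 2 and batch 1 against GC content of the longest coding transcript, from the FPKM as deposited (left) and after the GC trend of each library was removed (right); purple marks an adjusted p under 0.05. On the left the members with less GC lie higher, Pik3ca at 0.45 among them, and those with more GC lie lower, with Rps6kb2 lowest at -0.74; on the right Rps6kb2 alone is purple.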

How the data were processed

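The authors deposited FPKM for 17187 mouse genes in 9 libraries of poly(A) RNA (Illumina Stranded mRNA Prep, per the labels' protocols). kallisto, DESeq2 and mm10 are named in the submitters' processing notes, without versions. Whole-read steps in low single-transcript values (96.1 to 97.4% whole within 0.05) gave relative depths of 31.95 to 46.3 × 1e6 fragments.

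From the FPKM values, log2(FPKM + 0.5) was fitted for the 13958 genes that averaged 0.5 FPKM or more in limma 3.58.1 (R 4.3.3) with terms for vector and batch, a mean-variance trend, 6 residual degrees of freedom and Benjamini-Hochberg adjustment at 0.05. Fits of batch 1 alone and of a vector by batch interaction were added. No count test was run as a main result, since FPKM are not counts.

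The members and all gene lists were chosen with earlier results of these data known. Members given in full are those past the threshold, the 8 with the smallest p for vector, the 4 with the smallest p for batch, and Akt1, Mtor, Rptor, Rictor, Tsc1, Tsc2, Rheb, Rps6kb1, Eif4ebp1 and Ddit4; other listed genes are the 2 with the smallest p in each list.

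Alternatives were the pseudocount (0.1 or 1), the filter (1 FPKM or none), no batch term, median-ratio rescaling, a replicate block and leaving out each library. Added after seeing the data were leaving out GFP library 2 and hIL-6 library 1 (lowest Tph2), leaving out the 4 libraries with Gh above 1 FPKM, and removing each library's GC trend, with and without the block. GC content is that of the longest coding transcript in GENCODE M21, found for 92.4% of genes tested. No 2 libraries held identical values.

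Whether equal replicate numbers pair libraries was checked from their deviations. From the group means, which leave batch in, the correlations were 0.13, 0.14, 0.27 and 0.46 for numbers 1 to 4, each over 0.1. Within batch 1 they were 0.019, -0.11 and 0.27 for numbers 1 to 3, and number 4 is the only pair in batch 2. Number 4 therefore cannot be told apart from batch. Within batch 1, the hIL-6 library with the highest correlation was number 2 for GFP library 1, number 1 for GFP library 2 and number 3 for GFP library 3. Equal numbers thus matched best for number 3 alone, and the replicate block was kept as an alternative.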

Additional observations from a re-analysis of the deposited data

Results flagged for a closer look

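Of 72 group-wise checks of the members for a library far from the rest of its group, where chance alone would give 3.6, 1 stood out. Irs2, the adaptor between insulin receptors and PI3K, had 14.04 FPKM in GFP library 2, and the nearest of the other GFP libraries had 16.6 FPKM. The gap was 0.869 of the range of the 4 GFP libraries. The hIL-6 libraries lay between 15.5 and 16.9 FPKM.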

How the results depend on the processing

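For hIL-6 against GFP, no member passed the adjusted threshold in limma under any alternative, and the smallest adjusted p of the 22 members followed was 0.52. Over all genes the count was 0 throughout, except for a range of 0 to 2 when each library was left out (2 without hIL-6 library 2). Of the 22 members, 10 kept their direction in every alternative, among them Rps6kb1 (-0.25 to -0.14 with 1 library left out) and Akt2 (0.075 to 0.17). The other 12 turned in at least 1; the cause was not tested. Without the 4 libraries with Gh above 1 FPKM, the log2 differences were -0.024 for Pik3ca, 0.061 for Pik3r2, -0.018 for Pik3r3, 0.020 for Akt1 and 0.10 for Tsc2. Without a batch term they were 0.0072 for Pik3cb, 0.0085 for Rheb, -0.0032 for Akt1s1 and 0.0071 for Rictor, and without both libraries lowest in Tph2 it was 0.015 for Pik3r2. With each library left out in turn, the ranges were -0.082 to 0.014 for Pik3cb, -0.12 to 0.0013 for Pik3r1, -0.076 to 0.056 for Pik3r2, -0.035 to 0.027 for Akt1, -0.071 to 0.00097 for Tsc1, -0.13 to 0.029 for Mtor and -0.14 to 0.022 for Rictor.

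With a replicate block in place of batch, limma called 0 members and 0 genes for hIL-6 against GFP. The median over members was -0.015 with 11 above 0, and the log2 difference of Rps6kb1 was -0.22. No GFP library is numbered 5, so hIL-6 library 5 adds nothing to a difference from the block. With GC correction and the block together, it called 0 members, the median was -0.017 with 12 above 0, and Pik3cb stood at 0.00030. The block changed no call.

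For batch 2 against batch 1, the member count was 8, and it was 5 with no filter on low values. The count over all genes with no filter is not given here, so that drop is not read as a result about the members. The member count was 0 without the 4 Gh libraries (which leaves 2 libraries in batch 2 and 3 in batch 1). It was 1 after GC correction, and 0 to 9 when each library was left out. Over all genes the count of 3138 of 13958 became 14 without the Gh libraries, 248 of the 12896 genes with a GC value after GC correction, and 29 to 3370 when each library was left out. Eif4e turned to -0.048 after GC correction, and the cause was not tested. Rps6kb2 stayed past the threshold in 15 of 17 alternatives and Eif4e in 5.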
